A study of Mus musculus with 14 samples.

Results

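The 10 genes described here code for the extracellular matrix of cartilage, and their RNA was followed in whole heads of E12.5 mouse embryos with and without Zcchc8. They were Col2a1, Col11a1, Col11a2, Col9a1, Col9a2, Col9a3, Matn1, Matn4, Acan and Hapln1. Each was taken as the locus that carries its name, and where several loci do, as the one with the highest mean FPKM (fragments per kilobase of transcript, scaled to the library's total). They were 10 of 67811 loci in the files and 10 of the 18217 loci that passed the filter of at least 0.5 FPKM in at least 3 libraries. All 10 passed it, but 4 of the 6 knockout libraries had less than 0.5 FPKM of Matn1. The genes were chosen because earlier work on these files had shown them lower in knockout than in wild-type heads, so that difference is described below without a p-value and supports nothing.

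Polyadenylated RNA of the whole head, brain included, was sequenced with stranded libraries from embryos on the C57BL/6J background. The groups were Zcchc8+/+ (WT, 5 libraries, WT1 to WT5), Zcchc8+/- (HET, 3 libraries, numbered HET3 to HET5) and Zcchc8-/- (KO, 6 libraries, KO1 to KO6). Embryos of all 3 groups were of the same age and handled by the same protocol, but the altered part of Zcchc8 was not given in the sources used here. ZCCHC8 is a scaffold protein of the nuclear exosome targeting complex, which passes unstable nuclear RNA to the RNA exosome for decay. Whether every library is a different embryo cannot be read from the labels, and the p-values therefore measure the spread between these samples, which may be technical. Zcchc8 RNA had a mean of 39.7 FPKM in WT, 25.7 in HET and 15.5 in KO, with every KO library (9.27 to 20.6) below every HET library (23.98 to 27.2). Total depth is unknown because the files hold no counts, and the libraries' relative depth was between 1.0 and 1.49 times that of WT1.

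Cartilage of the embryonic head forms the skull base, the nasal and ear capsules and Meckel's cartilage of the lower jaw. Its chondrocytes lay down fibrils of type II collagen with type XI collagen inside them and type IX collagen on their surface, and fill the space between with aggrecan, a proteoglycan that binds water and is held on hyaluronan by link protein. Matrilins are adaptor proteins that connect these parts. In bulk samples of whole heads fewer cartilage cells and less RNA per cell cannot be told apart.

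The stretches before the transcription start of Matn1, Matn4 and Col11a2 are shown because Matn1 and Matn4 had the largest differences between KO and WT among the 10 genes, and Col11a2 the smallest. They are the 250 bases upstream of a RefSeq start in GRCm38.p6, at chr4:130944135-130944384 (plus strand), chr2:164405161-164405410 (minus strand) and chr17:34038888-34039137 (plus strand), written 5′ to 3′ on the strand of the gene. Capitals mark matches on either strand to a TATA box or to the GC box GGGCGG.
Matn1: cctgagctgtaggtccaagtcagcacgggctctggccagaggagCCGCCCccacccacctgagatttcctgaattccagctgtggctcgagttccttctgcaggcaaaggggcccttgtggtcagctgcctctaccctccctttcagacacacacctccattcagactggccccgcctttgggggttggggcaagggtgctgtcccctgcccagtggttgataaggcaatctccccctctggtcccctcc
Matn4: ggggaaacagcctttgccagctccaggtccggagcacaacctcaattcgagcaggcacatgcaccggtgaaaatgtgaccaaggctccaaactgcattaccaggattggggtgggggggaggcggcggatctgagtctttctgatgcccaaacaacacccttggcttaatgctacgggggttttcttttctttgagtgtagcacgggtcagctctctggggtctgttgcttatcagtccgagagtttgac
Col11a2: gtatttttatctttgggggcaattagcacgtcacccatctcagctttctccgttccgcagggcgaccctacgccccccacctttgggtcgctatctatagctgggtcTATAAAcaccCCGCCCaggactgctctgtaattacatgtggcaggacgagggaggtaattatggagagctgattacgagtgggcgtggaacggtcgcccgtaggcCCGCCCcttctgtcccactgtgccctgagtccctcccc

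RefSeq entries were found for 8 of the 10 genes, with 10 starts among them, and Col2a1 and Col9a3 had no entry. The 4 motifs were searched on both strands. ACAAAG is a core that SOX factors bind, and ACAATG is a variant of it. The TATA box, TATAAA, and the GC box, GGGCGG, are common elements of gene starts. A match to one may overlap a match to another. GGGCGG was present before 6 of the 10 starts (of Acan, Col11a1, Col11a2, Col9a2, Matn1 and Matn4), and in 32.7% of all 32851 promoter windows of the same length. TATAAA was present before 1 of the 10 starts, that of Col11a2, and in 12.4% of all windows. ACAAAG and ACAATG were in 0 of the 10 windows, against 16.5% and 10.7% of all windows. For Matn4 the match was before its other start. The shown window of Matn1 holds a GGGCGG match, that of Matn4 none of the 4 motifs, and that of Col11a2 a TATAAA and a pair of GGGCGG matches.

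RNA of all 10 genes stood lower in KO than in WT heads on average, by amounts that differed widely between them. The mean FPKM in KO was 26.5% of the WT mean for Matn1, 50.0% for Matn4, 53.4% for Acan and 53.7% for Col9a3, but 86.2% for Col11a1, 86.6% for Col2a1 and 92.8% for Col11a2. The fitted difference between the genotype means of log2(FPKM + 0.1) was negative for 10 of 10 genes on the deposited scale, after scaling to a common median and after quantile normalization. In the matrix that the authors had quantile normalized, all loci had a median of 0.20, and the difference was negative for 8 of 10, with Hapln1 at 0.0030 and Col11a2 at 0.022. The median of the 10 log2 differences was -0.46, and that of all 18217 loci was -0.0019. With limma-trend, a moderated linear model over all loci, and Benjamini-Hochberg adjustment at 0.05, 4 of 10 genes were called lower (Col9a3, Matn1, Matn4 and Hapln1), where 5.61% of all tested loci were called lower and 19% higher. Nothing is read from that count, since the same contrast chose the genes. The nearest gene inside the threshold was Hapln1, with a log2 difference of -0.43, and the nearest outside it were Acan at -0.96 and Col9a2 at -0.49.

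**Figure D1:**
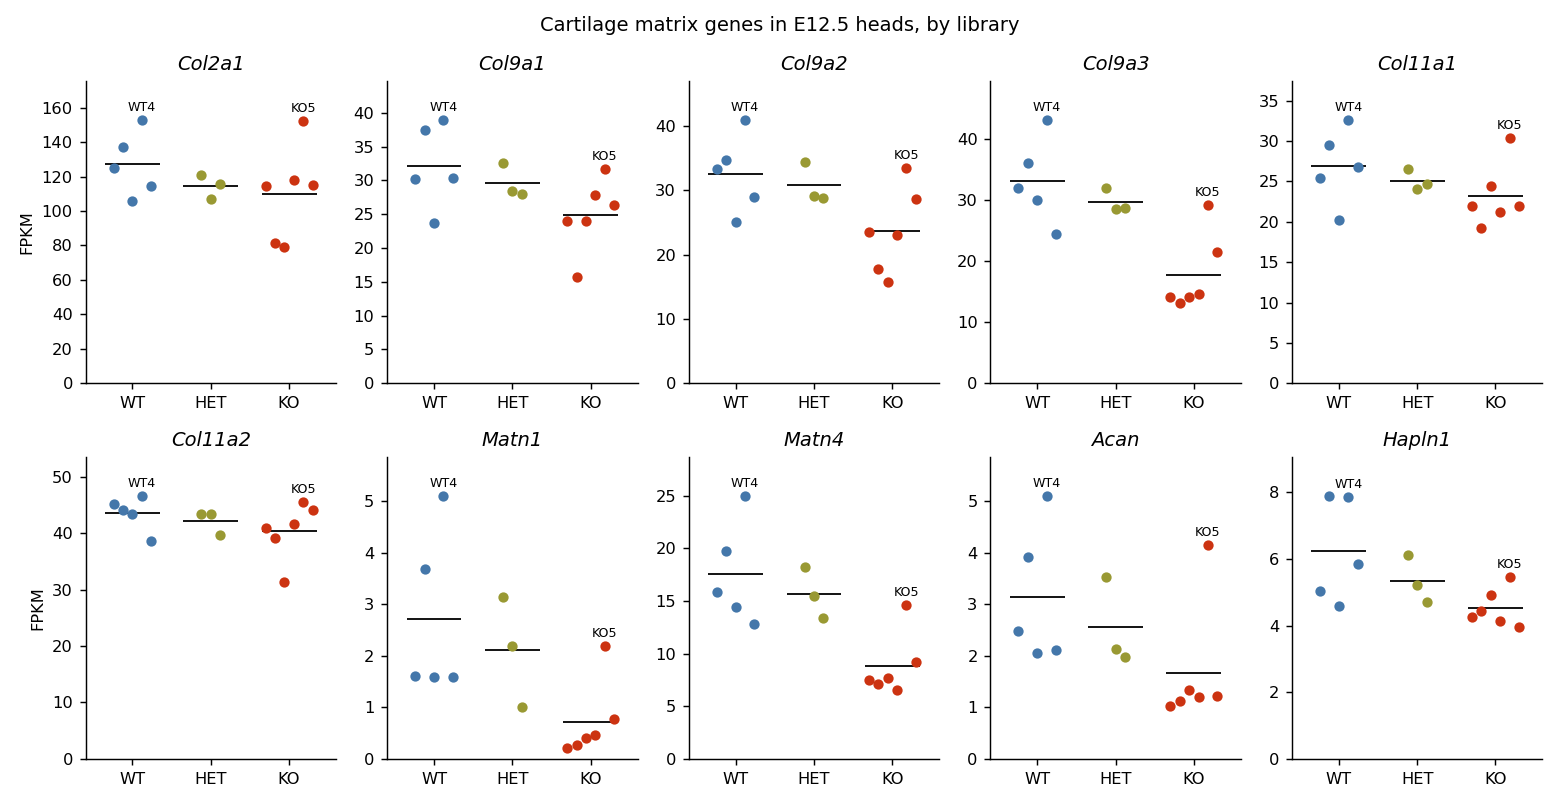
FPKM of the 10 cartilage matrix genes in each library (points) of the WT, HET and KO groups, with the group mean as a line and WT4 and KO5 named. KO5 is the highest KO library in all 10 panels, and without it the KO points of Col9a3, Matn1, Matn4 and Acan lie below every WT point.

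Among the fibril-forming collagens, Col2a1 had the highest level per length of the 10 genes, and the 3 genes of this kind had the smallest differences between KO and WT in the fit of FPKM. Col2a1 codes for the chain of type II collagen, the main collagen of cartilage (chromosome 15, 97975602 to 98004695, minus strand, mm10 with GENCODE M21, up to 54 exons). Its level was 125, 137, 106, 153 and 115 FPKM in WT1 to WT5 and 121, 107 and 115 FPKM in HET3 to HET5. KO libraries ran from 79.0 (KO3) through a median of 115 to 152 FPKM (KO5). Only KO2 and KO3 lay below the lowest WT library, and KO5 was level with the highest, so the groups overlapped almost fully. The log2 difference between KO and WT was -0.23 (SE 0.15).

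Col11a1 and Col11a2 code for chains of type XI collagen, which limits how thick the type II fibrils grow. Col11a1 (chromosome 3, 114030540 to 114220718, plus strand, up to 67 exons) was at 25.4, 29.5, 20.3, 32.6 and 26.8 FPKM in WT1 to WT5 and at 26.6, 24.1 and 24.7 FPKM in HET3 to HET5. In KO it ranged from 19.3 (KO2) over a median of 21.9 to 30.4 FPKM (KO5), with 1 of 6 libraries below the lowest WT library. KO and WT differed by -0.21 log2 (SE 0.12). Its ratio to Col2a1 was 0.211 ± 0.0154 in the 5 WT libraries (mean ± SD), 0.219 ± 0.00537 in the 3 HET libraries and 0.218 ± 0.0487 in the 6 KO libraries, so the level of Col11a1 relative to Col2a1 was similar in the genotypes, with a wider spread in KO.

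Col11a2 (chromosome 17, 34039437 to 34066685, plus strand, up to 66 exons) shares its locus in the files with Rxrb, a retinoid receptor gene expressed in many tissues, and the values cannot be split between them. The joint locus had 45.2, 44.1, 43.4, 46.6 and 38.6 FPKM in WT1 to WT5 and 43.3, 43.3 and 39.6 FPKM in HET3 to HET5. KO libraries had 31.4 (KO3) to 45.6 FPKM (KO5), with a median of 41.2. This was the narrowest range of the 10 genes in WT, with a highest library 1.21 times the lowest, and the smallest log2 difference (-0.11, SE 0.08).

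Type IX collagen, which decorates the fibril surface, is assembled from the products of Col9a1, Col9a2 and Col9a3, and these genes did not move by equal amounts. Col9a1 (chromosome 1, 24177610 to 24252684, plus strand, up to 38 exons) was at 30.2, 37.4, 23.8, 38.9 and 30.4 FPKM in WT1 to WT5 and at 32.6, 28.4 and 27.9 FPKM in HET3 to HET5. KO libraries ranged from 15.7 (KO2) over a median of 25.2 to 31.6 FPKM (KO5), and KO2 alone was below the lowest WT library, WT3. On the log2 scale KO differed from WT by -0.37 (SE 0.16).

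Col9a2 (chromosome 4, 121039385 to 121055322, plus strand, 32 exons) had 33.3, 34.7, 25.1, 40.8 and 28.9 FPKM in WT1 to WT5 and 34.4, 29.2 and 28.8 FPKM in HET3 to HET5. Its KO values went from 15.8 (KO3) over a median of 23.2 to 33.4 FPKM (KO5), and 4 of 6 were below the lowest WT library. This came to a log2 difference of -0.49 (SE 0.18). Col9a3 (chromosome 2, 180597790 to 180622189, plus strand, up to 33 exons) lies in a file range that also covers Tcfl5, listed as a separate locus with means of 0.814 FPKM in WT and 0.774 in KO.

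Col9a3 was at 31.9, 36.0, 30.0, 43.0 and 24.5 FPKM in WT1 to WT5 and at 31.9, 28.5 and 28.7 FPKM in HET3 to HET5. The KO values ranged from 13.1 (KO2) over a median of 14.3 to 29.1 FPKM (KO5). KO1 to KO4 sat close together between 13.1 and 14.6 FPKM, KO6 was at 21.5, and only KO5 reached into the WT range. The log2 difference was -0.93 (SE 0.20).

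In WT and HET heads the type IX collagen genes had nearly equal FPKM, and in KO heads Col9a3 stood below the others. The ratio of Col9a3 to Col9a1 was 1.04 ± 0.170 in the 5 WT libraries (mean ± SD), 1.003 ± 0.0252 in the 3 HET libraries and 0.711 ± 0.165 in the 6 KO libraries. Single KO libraries gave ratios from 0.525 to 0.920 and WT libraries from 0.805 to 1.26, so 3 KO libraries (KO1, KO3 and KO4, at 0.586, 0.586 and 0.525) lay below all WT libraries and the groups overlapped in the rest. The ratio of Col9a2 to Col9a1 was 1.02 ± 0.0754 in WT, 1.04 ± 0.0146 in HET and 0.957 ± 0.181 in KO (SD, same numbers of libraries). These ratios rest on the values that chose the genes and are given without a test.

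**Figure D2:**
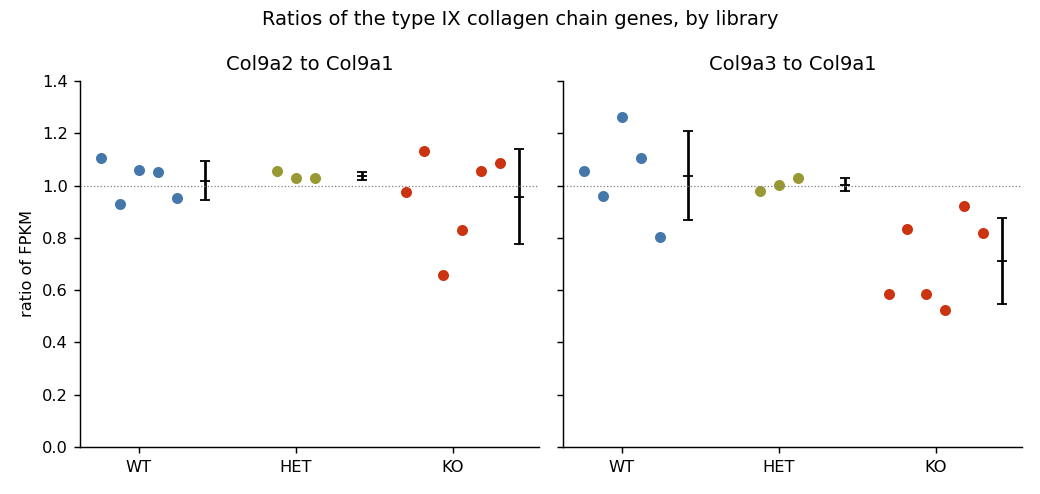
Ratio of the FPKM of Col9a2 (left) and Col9a3 (right) to that of Col9a1 in each library (points), with the group mean and SD as black bars and a dotted line at 1. The Col9a3 to Col9a1 ratio averages 1.04 in WT, 1.003 in HET and 0.711 in KO.

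Matn1, which codes for matrilin-1, an adaptor protein found mostly in cartilage, had the largest difference of the set. The gene (chromosome 4, 130944385 to 130955475, plus strand, 8 exons) shares its locus with the clone-named transcript RP23-218C2.2. It was at 1.61, 3.68, 1.59, 5.09 and 1.59 FPKM in WT1 to WT5 and at 3.14, 2.18 and 1.02 FPKM in HET3 to HET5. KO libraries had 0.216 FPKM at the lowest (KO1), 0.426 at the median and 2.19 at the highest (KO5). WT2 and WT4 stood well above the other WT libraries, and 5 of 6 KO libraries were below every WT library, with KO6 at 0.772 FPKM the next after KO5. The log2 difference was -1.97 (SE 0.50), and at levels this low its size depends on the scale. It was -1.43 with a pseudocount of 0.5, -1.10 with a pseudocount of 1 and -3.00 after quantile normalization.

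Matn4 codes for matrilin-4, which is also made outside cartilage, and its gene lies on chromosome 2 (164389393 to 164405160, minus strand, up to 11 exons). The level was 15.9, 19.8, 14.5, 24.9 and 12.8 FPKM in WT1 to WT5 and 18.2, 15.4 and 13.4 FPKM in HET3 to HET5. KO libraries ranged from 6.55 (KO4) over a median of 7.57 to 14.6 FPKM (KO5). The other 5 KO libraries, up to 9.24 FPKM in KO6, were below the lowest WT and the lowest HET library. KO and WT differed by -1.01 log2 (SE 0.21). Matn1 stood at 0.145 ± 0.0467 of the Matn4 level in the 5 WT libraries (mean ± SD), 0.130 ± 0.0493 in the 3 HET libraries and 0.0705 ± 0.0437 in the 6 KO libraries, and the ratio of 0.15 in KO5 fell within the WT range of 0.101 to 0.204.

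Acan, the gene of the aggrecan core protein (chromosome 7, 79053483 to 79115099, plus strand, up to 17 exons), was at 2.49, 3.92, 2.06, 5.09 and 2.11 FPKM in WT1 to WT5 and at 3.53, 2.14 and 1.98 FPKM in HET3 to HET5. Its KO values had a lowest of 1.02 (KO1), a median of 1.21 and a highest of 4.15 FPKM (KO5). KO1, KO2, KO3, KO4 and KO6 lay within 1.02 to 1.33 FPKM, under the range of WT and HET, and KO5 was above 4 of the 5 WT libraries. The log2 difference was -0.96 (SE 0.34), and without KO5 it was -1.25 (SE 0.24).

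Hapln1 codes for link protein, which fixes aggrecan to hyaluronan (chromosome 13, 89539796 to 89611652, plus strand, 5 exons). Its level was 5.05, 7.89, 4.603, 7.87 and 5.86 FPKM in WT1 to WT5 and 6.12, 5.22 and 4.71 FPKM in HET3 to HET5. In KO the lowest was 3.96 (KO6), the median 4.35 and the highest 5.47 FPKM (KO5). The KO libraries were close to each other, 4 of 6 were below the lowest WT library, and WT2 and WT4 were the highest of all libraries. The log2 difference was -0.43 (SE 0.14), and the gene was called lower in 16 of the 29 settings tried. Acan stood at 0.489 ± 0.104 (SD, n = 5) of the Hapln1 level in WT and at 0.353 ± 0.200 (SD, n = 6) in KO, where KO5 had 0.758 and the other KO libraries 0.240 to 0.309.

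KO5 was the highest of the 6 KO libraries for 10 of 10 cartilage matrix genes, and it held that place at 25.5% of all tested loci. WT4 was the highest WT library for 9 of 10 genes (21.5% of all loci), and HET3 the highest HET library for 9 of 10 (38.4% of all loci). Most of the genes thus shared their highest library within each genotype, which alone does not show that they vary together over the other libraries. The spread among KO libraries was also part of how the genes were chosen, so the place of KO5 is a description. Over the 14 libraries, with each genotype's mean removed, the correlation of a gene with the mean of the other 9 was highest for Matn4 (Pearson r = 0.94), Matn1 (0.93) and Acan (0.93) and lowest for Col11a2 (0.58). The libraries share their dissection and depth across genes, so this is a description of how the genes vary together. KO5 also had the most Zcchc8 RNA of the KO libraries, at 20.6 FPKM, with KO6 next at 18.7 and KO1 lowest at 9.27. A link between that level and the cartilage matrix genes was not tested.

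No gene of the 10 had all KO libraries below all WT libraries, a pattern seen at 1.99% of all tested loci. Without KO5 it was seen for 4 of 10 genes (Col9a3, Matn1, Matn4 and Acan) and at 3.24% of all loci. Leaving out KO5 also raised the number of genes called lower from 4 to 7 of 10, adding Acan, Col9a2 and Col9a1 to the other 4, and leaving out WT3 raised it to 7 as well. Over all 18217 loci the number called lower was 1022 in the main fit, 1247 without KO5 and 750 without WT3. The counts of the 10 genes come from the contrast that chose them and from a library picked after its values were seen.

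The FPKM of the 10 genes summed to 271 to 397 in WT, 285 to 321 in HET and 199 to 349 in KO libraries, and Col2a1 alone made up much of it. Each library's median deviation from the WT mean over the 10 genes was -0.07, 0.18, -0.37, 0.35 and -0.16 log2 in WT1 to WT5, and 0.02, -0.15 and -0.18 in HET3 to HET5. It was -0.48, -0.93, -0.85, -0.51, 0.03 and -0.44 in KO1 to KO6. KO2 and KO3 were the lowest libraries of the study on this measure, KO5 was within the WT range, and the other 3 KO libraries lay just below WT3.

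The genes differed in their spread among WT heads. Across the 10 genes, the SD of log2(FPKM + 0.1) among WT libraries ranged from 0.10 for Col11a2 to 0.78 for Matn1. That SD and the log2 difference between KO and WT had a Pearson r of -0.92 and a Spearman rho of -0.92 over 10 genes, as a description only. The difference is the one that chose the genes, the WT libraries enter both values, and the genes share all libraries. The median SD of the 10 genes was 0.29 in WT and 0.38 in KO, and it was larger in KO for 8 of 10 genes, all but Col11a1 and Hapln1. Over all 18217 loci the median SD was 0.13 in WT and 0.19 in KO, and it was larger in KO at 13660 of them, so a wider spread in KO was common to most loci.

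**Figure D3:**
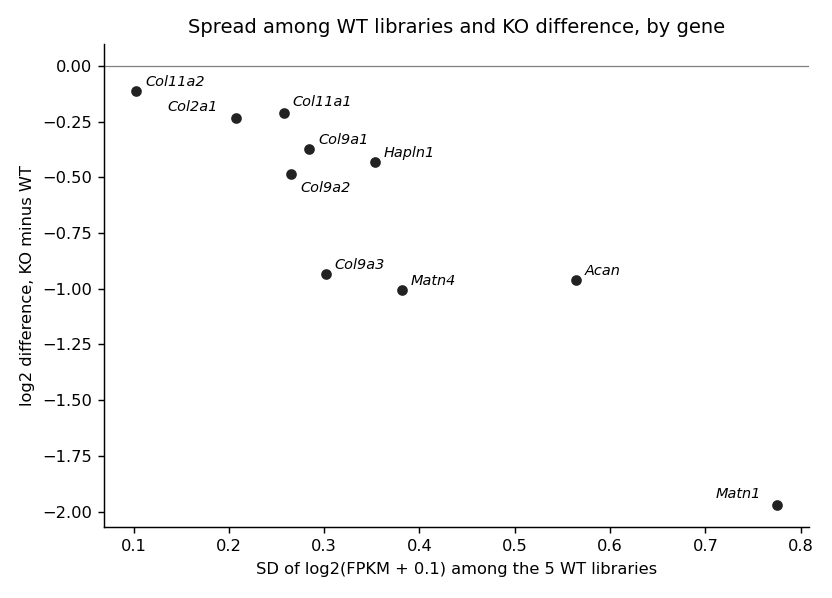
SD of log2(FPKM + 0.1) among the 5 WT libraries (horizontal) against the fitted log2 difference between KO and WT (vertical), 1 point per gene. Col11a2 has the smallest SD and difference, and Matn1 the largest of both (0.78 and -1.97).

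In HET heads the cartilage matrix genes were close to WT, and this comparison did not use the libraries behind the choice of the genes other than the shared WT ones. None of the 10 was called by limma-trend, where 1 of 18217 loci (0.00549%) was called and 354 had an unadjusted p under 0.05. No cartilage matrix gene was among those 354, and the adjusted p was 1 for all 10. The log2 difference was below 0 for 10 of 10 genes and at 53.2% of all loci, with medians of -0.13 and -0.0046. The shared WT libraries helped choose the genes, and the genes vary together, so these signs are not independent and nothing is read from their count. The difference ran from -0.05 (95% interval -0.26 to 0.16) for Col11a2 to -0.30 (-1.60 to 0.99) for Matn1. For Col9a3 it was -0.13 (-0.64 to 0.38), for Matn4 -0.13 (-0.67 to 0.40) and for Acan -0.24 (-1.11 to 0.63). All 10 intervals include 0, and those of 7 genes, all but Col9a3, Matn1 and Matn4, also reach the difference seen between KO and WT.

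**Figure D4:**
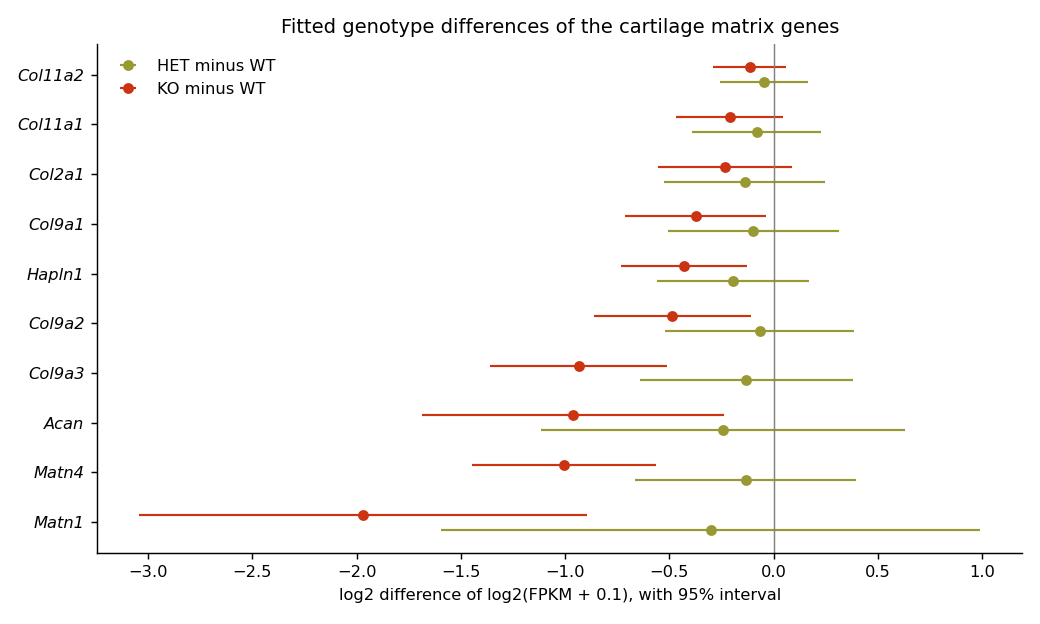
Fitted log2 differences of the 10 genes with their 95% intervals, KO minus WT (red) and HET minus WT (green), ordered by the KO difference. All points lie at or below 0, from -0.11 to -1.97 in KO and from -0.05 to -0.30 in HET, and every HET interval includes 0.

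Between KO and HET, which shares its KO libraries with the comparison that chose the genes and so is no independent support, 2 of 10 genes were called lower, where 4.36% of all loci were. Col9a3 differed by -0.80 log2 (SE 0.23) and Matn4 by -0.87 (SE 0.24), while Matn1 differed by -1.67 (SE 0.58) and was not called. The median over the 10 genes was -0.35 log2. For Col9a3 and Matn4, 5 of 6 KO libraries were below all 3 HET libraries, and KO5 was within the HET range. The count was 4 without KO5, and 0 without HET3 or without HET4. Over all 18217 loci, 932, 267 and 354 were called lower in these fits.

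Sex, read from sex-linked RNA, was female in 2 WT, 2 HET and 4 KO libraries and male in 3 WT, 1 HET and 2 KO libraries. The difference between KO and WT was not found to depend on sex for any of the 10 genes by limma-trend, with a smallest adjusted p of 0.147 for Col11a2. In that gene it was 0.06 log2 in females and -0.36 in males, and in Col2a1 -0.02 and -0.66. With 2 male KO libraries, KO2 and KO3, which were also the lowest for Col2a1, a dependence on sex and the level of those libraries cannot be told apart.

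Other cartilage matrix genes, taken from a list of 24 of which 18 were tested, included 5 that fell in KO relative to WT and none that rose. Of all 18217 tested loci, 5.61% were called lower and 19% higher. Matn2, which codes for another matrilin, went from a mean of 5.08 to 3.52 FPKM (log2 difference -0.52, limma-trend adjusted p = 0.00015), and Prelp, a leucine-rich repeat protein, from 2.58 to 2.04 FPKM (-0.32, limma-trend adjusted p = 0.0090). Cytl1, a secreted protein of chondrocytes, went from 2.61 to 1.09 FPKM (-1.12, limma-trend adjusted p = 0.0032). Cnmd, which codes for chondromodulin (-0.64), and the locus of Itga10, a collagen-binding integrin that shares it with other names (-0.15), were the other two, named after their values were seen. The list's median was -0.15, and its count of falls was 3 without WT4 or without KO4. In the authors' matrix its median was 0.05, where all loci lay at 0.20, and the calls of Matn2, Prelp, Cnmd and Itga10 were lost. There 2 genes were lower and 3 higher, beside 269 lower and 6969 higher of 17141 loci.

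Genes for making and modifying the matrix were counted beside the 5.61% of all loci called lower and the 19% called higher. Of 25 tested genes for collagen modification and assembly, 3 fell and none rose (median -0.16), namely Lox, a lysyl oxidase that cross-links collagen (29.9 to 21.2 FPKM, log2 difference -0.50), Adamts2, a procollagen protease (-0.48), and the locus of P3h3, a prolyl hydroxylase (-0.38). Among 21 genes of chondroitin sulfate synthesis, which make the sugar chains of aggrecan, 4 fell and 1 rose (median -0.17). Chsy3 (-0.42) and Chst11 (-0.20) were lower, as were Chst12 (-0.28) and Papss1 (-0.14), the last pair named after their values were seen. B3galt6, an enzyme of the linkage region of these chains, rose from 5.80 to 9.19 FPKM (0.65, SE 0.07, limma-trend adjusted p = 3.0e-06). The authors' matrix gave medians of 0.05 and 0.15 for these lists, both below the 0.20 of all loci, and kept the calls of Lox and B3galt6 but not those of the other genes named here. Without WT3 or without KO5, 5 of the collagen modification genes fell, and without KO3, 7 of those for chondroitin sulfate synthesis. Over all 18217 loci, 750, 1247 and 1234 were called lower in these fits.

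Of 11 transcription factor genes of the cartilage lineage, none fell in KO and 1 rose, beside the 5.61% of all loci called lower and 19% called higher. This was Sox6, a partner of Sox9 in chondrocytes, which went from 7.88 ± 0.538 (SD, n = 5) to 11.6 ± 1.76 FPKM (SD, n = 6; log2 difference 0.53, SE 0.10, limma-trend adjusted p = 0.00046), at a locus it shares with another name. Sox9, the factor that chondrocytes need to form, was named here after its values were seen. It was at 36.0 ± 0.806 FPKM (SD, n = 5) in WT, 36.5 in HET and 36.3 ± 3.22 (SD, n = 6) in KO, a log2 difference of 0.01 (SE 0.06). Sox5, also named after its values were seen, was at 9.84 ± 1.23 (SD, n = 5) and 8.94 ± 2.39 FPKM (SD, n = 6). These factors are also made in brain and neural crest, so whole-head levels do not stand for chondrocytes alone. Barx2 (-0.44) and Pax9 (0.26) were not called, and the list's median was -0.0019. In the authors' matrix 5 of the 11 were called higher, where 6969 of 17141 loci were, with a median of 0.26 beside the 0.20 of all loci, and without KO5 in the fit 1 was called lower.

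Of 13 chondrocyte signalling genes 1 fell, Gdf5, a growth factor of developing joints (1.66 to 1.28 FPKM, log2 difference -0.37, limma-trend adjusted p = 0.046), where 5.61% of all loci fell. The list's median was -0.16, and -0.05 without KO2. Among genes of hypertrophic cartilage and bone, 4 of 10 passed the filter, and 2 of these fell. They were Alpl, the alkaline phosphatase of mineralizing tissue (9.12 to 7.15 FPKM, -0.34), and Sp7, the osteoblast factor osterix (3.31 to 2.40 FPKM, -0.47). The fall of Gdf5 was lost in 12 of the 14 fits that each left out 1 library. The calls of Gdf5, Alpl and Sp7 were lost in the authors' matrix, where the medians of these lists were 0.15 and -0.03. No gene of any of these lists was called in HET against WT, where at most 1 locus of all was.

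Genes of several other tissues of the head were also lower in KO, and these lists were set with earlier results known. The counts stand beside 5.61% of all 18217 loci called lower and 19% called higher. Single calls in the neuron, inner ear and notochord lists are too few to be set apart from those shares. Of 18 fibroblast and mesenchyme genes 9 fell (median -0.26), among them Col1a2 (-0.39), Dcn (-0.72) and Col6a1 (-0.49). Of 14 skeletal muscle genes 6 fell (median -1.07), among them Actn2 (-1.14), Myl4 (-1.14) and Mylpf (-1.18), and of 13 lens genes 10 fell (median -1.18), among them Crygd (-2.41), Crygb (-2.12) and Cryab (-0.52). Gamma crystallins such as Crygd and Crygb are near-identical copies that can share fragments. The muscle count rested on few libraries. It was 0 without WT2 or without WT4, 2 without KO1 or without KO4, 3 without KO2 or without KO6, and 10 without KO5. Over all 18217 loci, 724, 675, 902, 676, 1109, 919 and 1247 were called lower in these fits, taken in that order. The main fit had 1022. With 1 library left out, the fibroblast count ranged from 6 to 12 and the lens count from 7 to 11. Of 9 surface epithelium genes 5 fell (median -0.35). They were Krt5 (-0.76), Krt14 (-0.68) and Krt15 (-0.83), and Trp63 (-0.35) and Perp (-0.42), the last pair named after their values were seen. Neuron genes had 1 fall in 9 (Gap43, -0.21), which was lost without WT2, WT3, WT4, KO4 or KO6 and joined by another without KO2. Inner ear genes had 1 fall in 3 (Tecta, -0.74, or -2.27 after quantile normalization and -0.32 with a pseudocount of 1), or 2 falls without KO2, and notochord genes 1 rise in 2 (Shh, 0.43). In the authors' matrix the fibroblast, muscle and lens lists had 5, 1 and 5 lower calls with medians of -0.13, -0.77 and -0.92, and the epithelium list 3 lower and 2 higher with a median of 0.11. Of all 17141 loci there, 269 were lower and 6969 higher, with a median of 0.20.

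The skeletal muscle list followed the cartilage matrix genes across libraries in part. Summed over genes with a locus of their own, muscle RNA was 191 to 368 FPKM in WT, 225 to 307 in HET and 48.6 to 264 in KO, with no listed marker at 0 in all libraries. KO5 had the highest muscle level of the KO libraries and KO2 the lowest, as for the cartilage sum. Fibroblast RNA summed to 909 to 1073 FPKM in WT, 926 to 983 in HET and 744 to 933 in KO, and neuron RNA to 573 to 651, 575 to 652 and 502 to 584. Lens RNA took another course, with 131 to 177 FPKM in WT, 141 to 228 in HET and 40.4 to 173 in KO, where KO2 was the highest. The part of these tissues in the cartilage result was not tested.

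Hox genes of neck and trunk level, which are normally silent in the front of the head, varied widely between libraries. The 5 such genes with a locus of their own summed to 2.44 to 17.5 FPKM in WT, 0.295 to 18.9 in HET and 0.0327 to 26.3 in KO. KO5 had the highest sum of all libraries, and KO1 and KO2 the lowest at 0.0437 and 0.0327 FPKM. None of the 9 tested Hox genes was called. Their median difference was -0.998, but -0.33 without KO2, -0.49 without KO1, -0.54 without WT2, -0.56 without WT3, -0.47 and -0.31 with pseudocounts of 0.5 and 1, -0.29 with library weights, -0.18 among female libraries and 0.08 without KO1, KO2 and KO5. Without KO1, KO2 and KO5, the median difference of the 10 cartilage matrix genes between KO and WT was -0.52. In that fit 4 of 10 were called lower, where 1171 of 18217 loci were. It was added after the data were seen and leaves out KO5, the highest KO library for all 10 cartilage matrix genes. Leaving out KO5 alone gave a median of -0.54, beside -0.46 with all libraries. The fit therefore cannot separate the Hox level from the loss of KO5, and nothing is read from it. The part of the Hox differences in the cartilage values was not tested.

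**Figure D5:**
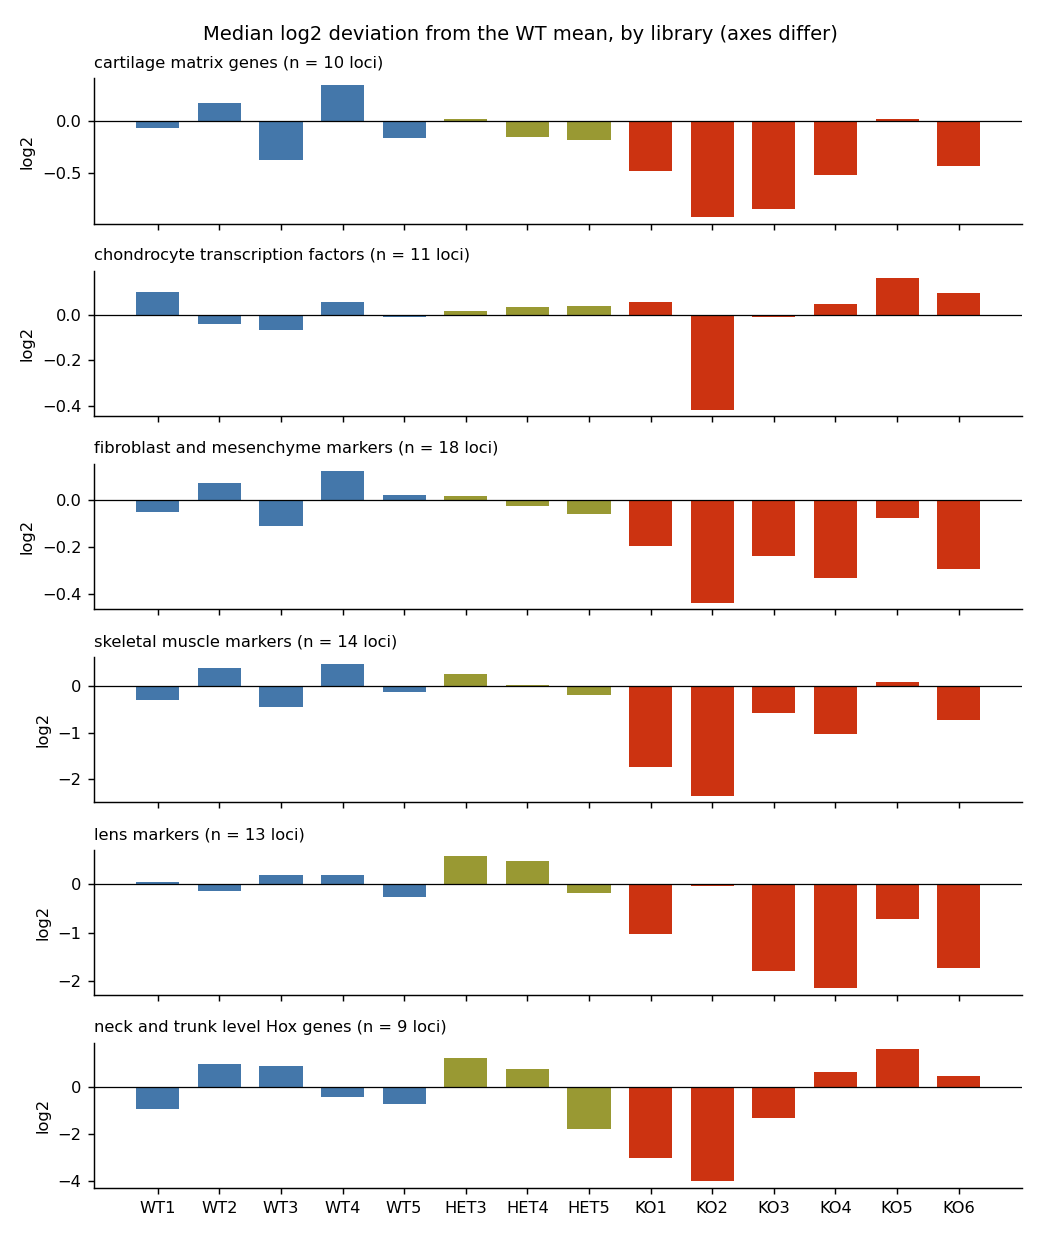
Median deviation of each library from the WT mean, in log2(FPKM + 0.1), over the loci of 6 gene lists (bars; WT blue, HET green, KO red; the vertical axes differ). The cartilage matrix genes are lowest in KO2 and KO3 (-0.93 and -0.85) and near the WT mean in KO5 (0.03), while the transcription factors lie between -0.07 and 0.16 in all libraries but KO2 (-0.42).

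Other loci were ranked by how closely their levels followed the mean of the cartilage matrix genes. Among 11456 other single-name loci averaging 1 FPKM or more, the 8 with the highest Pearson correlation to the mean of the 10 genes over 14 libraries, with genotype means removed, were Col6a1 (0.94), Myh7 (0.93), Ctgf (0.93), Col6a2 (0.92), Cspg4 (0.92), Cmtm5 (0.91), Hspb2 (0.90) and Pgam2 (0.90). Col6a1 and Col6a2 code for type VI collagen, which surrounds chondrocytes and muscle fibres alike. Myh7 and Pgam2 are muscle genes, and Ctgf codes for a matrix-associated growth regulator. Col6a1 was at 34.4 to 45.7 FPKM in WT and 23.5 to 35.01 in KO, and Myh7 at 1.78 to 4.21 and 1.18 to 3.76 FPKM. All 8 were highest in KO5 and lowest in KO2 among the KO libraries, and the choice by likeness within genotypes carries no test.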

How the data were processed

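Cuffdiff FPKM values per locus were deposited by the authors in 1 table for each library, per the file headers, with a matrix of quantile-normalized log2 values, which the authors left blank where the FPKM is 0. The submitters' processing notes also name bcl2fastq, FastQC 0.10.0, TopHat2 2.1.0, Partek and the build mm10. Their roles, the strand setting and the gene models were not given in the sources used here. A locus can carry several names (2593 loci), and fragments of overlapping or antisense genes cannot be told apart.

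FPKM values were analysed as log2(FPKM + 0.1) for loci with at least 0.5 FPKM in at least 3 libraries. Genotypes were compared by limma-trend with robust moderation (limma 3.58.1, R 4.3.3) in 1 fit of 14 libraries with a mean per genotype, adjusted by the Benjamini-Hochberg method over 18217 loci, and checked on simulated data. Tables and plots used Python 3.11.15, pandas 2.3.3, numpy 2.4.6, scipy 1.17.1 and matplotlib 3.10.9. Relative depth was read from the steps of FPKM values under 0.3, in log2 bins of 0.02.

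The 10 genes and the 14 other lists were chosen with earlier results of these data known. Beside the 10 genes and Zcchc8, the genes named by rule are the 3 of each list with the smallest p in KO against WT and the 8 loci most like the 10 genes, not all of which are printed. Further genes are marked as named after their values were seen. The alternatives tried were pseudocounts of 0.5 and 1, other filters, scaling to a common median or by quantiles, the replicate number as a block, only the groups compared, sex as a covariate, library weights and leaving out each library. Added after seeing the data were fits of the authors' matrix, of female libraries alone, without KO1, KO2 and KO5, and of loci with a single name. Gene positions came from GENCODE M21 and promoter windows from RefSeq (GRCm38.p6, 32851 windows of 27025 genes).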

Additional observations from a re-analysis of the deposited data

Results flagged for a closer look

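KO5 stood apart from the other KO libraries for 3 of the cartilage matrix genes. Its Matn1 level was 2.19 FPKM, and the next KO library had 0.772. Its Matn4 level was 14.6 FPKM beside 9.24, and its Acan level 4.15 FPKM beside 1.33. In each case the gap in FPKM was larger than Dixon's 95% critical value for 6 samples allows. The log2 values used in the fits were not tested this way, and the gaps depend on the scale. As log2 deviations from the WT mean, KO5, the next and the lowest KO library were at -0.12, -1.51 and -2.98 for Matn1. They were at -0.22, -0.88 and -1.37 for Matn4, and at 0.48, -1.08 and -1.44 for Acan. For normally distributed values, chance alone passes that value in about 1 in 20 groups, and here 3 of 22 groups did. These 3 genes vary together across the libraries, with Pearson correlations of 0.93 for Matn1, 0.94 for Matn4 and 0.93 for Acan to the other members over 14 libraries, so they are not independent. The spread among KO libraries was also part of how the genes were chosen, and the count is a description.

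Outside the measured loci of the 10 genes, a pair of low loci that carry the name Col2a1 and the same coordinate range were higher in KO. The main Col2a1 locus had a log2 difference of the other sign (-0.23, SE 0.15) and was not called. The first had a mean of 1.26 FPKM in WT, 1.19 in HET and 1.79 in KO, with every KO library above every WT library (log2 difference 0.48, SE 0.11, limma-trend adjusted p = 0.0035). The other had a mean of 0.108 FPKM in WT, 0.0973 in HET and 0.440 in KO, also with every KO library above every WT library, and was too low to be tested. Of all 18217 tested loci 19% were called higher in KO, and how many had every KO library above every WT library was not counted. The strand of this pair was not given in the sources used here.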

How the results depend on the processing

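Between KO and WT, the median difference of the 10 genes kept its sign under all 28 alternatives, from -0.55 to -0.37 when 1 library was left out and -0.25 in the authors' matrix. The count of genes called lower, 4, ranged from 3 to 7 when 1 library was left out and was 1 among female libraries alone. Over all 18217 loci the lower calls, 1022, ranged from 675 (without WT4) to 1247 (without KO5), and were 578 among female libraries. The count of genes with all KO below all WT libraries, 0, ranged from 0 to 4 when 1 library was left out. It was 1 after quantile normalization, 1 among female libraries and 4 without KO1, KO2 and KO5. Over all tested loci this pattern was seen at 1.99% with all libraries and 3.24% without KO5, and was not counted in the other settings. With fewer libraries it arises more easily, so nothing is read from these counts. Between KO and HET the count of 2 ranged from 0 to 4 when 1 library was left out, and was 0 among female libraries, 0 in the authors' matrix and 4 after quantile normalization. Over all 18217 loci the lower calls of that comparison, 794, ranged from 267 (without HET3) to 932 (without KO5). They were 480 among female libraries, 217 of 17141 in the authors' matrix and 3256 after quantile normalization. Of the other cartilage matrix genes, 5 were lower, with a range of 3 to 5 when 1 library was left out, 2 in the authors' matrix, 3 without a filter, 2 among female libraries and 9 after quantile normalization. Over all loci, 269 of 17141 were lower in the authors' matrix, 720 of 47204 without a filter and 3801 of 18217 after quantile normalization. None of the 10 genes was called between HET and WT in any setting. Calls of Col9a3, Matn4 and Matn1 were lost among female libraries alone, and that of Hapln1 in 13 settings.

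Single genes changed sign as follows. KO minus WT became 0.022 for Col11a2 and 0.0030 for Hapln1 in the authors' matrix, and 0.058 for Col11a2 among females. HET minus WT became 0.0054 for Col11a2 among females, and over fits that left out 1 library it ranged from -0.157 to 0.018 (without WT4) for Col9a2, -0.248 to 0.0018 (without WT4) for Matn4 and -0.644 to 0.126 (without HET5) for Matn1. KO minus HET became 0.159 for Col2a1 and 0.053 for Col11a2 among females, and 0.031 for Col11a1, 0.054 for Col11a2 and 0.145 for Hapln1 in the authors' matrix, and ranged from -0.110 to 0.0043 (without KO3) for Col11a2. Sizes also moved. With 1 library left out, KO minus WT was -0.15 for Col2a1 without KO2 and -0.14 without KO3, -0.25 for Col9a1 without KO2, -0.14 for Col11a1 without WT4 and -0.04 for Col11a2 without KO3. Quantile normalization gave -0.89 for Gdf5, -0.86 for Chsy3, -0.65 for Prelp and -0.72 for Sp7, and a pseudocount of 1 gave -0.23 for Gdf5, -0.75 for Cytl1, -1.10 for Crygb and -1.43 for Crygd. The authors' matrix gave 0.03 for Prelp, 0.06 for Itga10, 0.19 for Chst11, 0.10 for Chst12, 0.02 for Alpl and 0.11 for Trp63, opposite to the sign as deposited. The median of the other cartilage matrix list was -0.58 after quantile normalization. The causes were not tested. Over all loci the KO against WT calls were 3463 higher and 1022 lower, 6969 and 269 in the authors' matrix, 3414 and 1252 with a common median, and 2338 and 3801 once quantile normalized.

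Whether libraries with the same replicate number were handled together was not tested. Same-numbered libraries of different genotypes had correlations of -0.114 to 0.1004 over 11 pairs, and 5 of 14 libraries correlated best with their own number. With the number as a block, 3 of the 10 genes and 2 of the other cartilage matrix genes were lower in KO than WT. Over all 18217 loci, 645 were lower and 3198 higher in that comparison. Between KO and HET, 0 of the 10 were lower with the block, where 409 of all loci were lower and 2995 higher. Without read counts, the precision of low values such as Matn1 in KO cannot be given.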
